A study of Mus musculus and Homo sapiens with 9 samples.

Results

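The regions described here were 331 binding sites of thymine DNA glycosylase (TDG) that lay inside protein-coding genes, close to an end of a gene but not at it. They were chosen by position alone. A site was taken where the summit of its peak, the base with the most reads, fell inside a protein-coding gene of the RefSeq table for the mouse assembly GRCm38 (mm10), more than 1 kb but at most 5 kb from the nearest end of any protein-coding gene. The rule selected 331 of the 3410 peaks in the authors' TDG list (9.71%) and 331 of the 704 peaks inside gene bodies. Of the other peaks, 2290 had the summit within 1 kb of a gene end, 373 lay deeper than 5 kb in a gene body, 405 lay between genes and 11 were on unplaced sequence. No measured value entered the rule.

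The study mapped TDG and p53 on chromatin by ChIP-seq, in which proteins are crosslinked to DNA, the DNA is sheared and the fragments bound by an antibody are sequenced. The TDG list came from 1 library of B16, a mouse melanoma cell line whose labelled genotype is Tdg HA knockin, precipitated with an antibody to the HA tag. The p53 list came from 1 library of B16 cells with the same knockin, precipitated with an antibody to p53. Input DNA, IgG, wild-type B16 cells with the HA antibody, Trp53 KO cells with the p53 antibody, and the H1299 samples were not analysed here. Both analysed libraries therefore share the HA tag on Tdg, and the labels do not say whether the knockin line was 1 clone. Peak lists carry no RNA levels, so the melanoma label could not be checked against marker genes. With 1 library per antibody there was no replicate and no test of a difference. The intervals of shares and counts below cover counting error only. All 331 sites share that library, and some share a host gene, meaning the gene that holds the summit, so they are not replicates of each other.

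TDG is a DNA repair enzyme that removes thymine from G-T mismatches, the product of deamination of methylated cytosine. It also excises some of the oxidised forms of methylcytosine made by TET enzymes, which opens the base excision repair route to unmethylated DNA. Both substrates arise mainly at CpG, a cytosine followed by a guanine, and CpG-dense stretches known as CpG islands cover many promoters. TDG is also known to bind the acetyltransferases CBP and p300. Many mammalian genes have several promoters, so transcription need not begin at the outermost end of a gene.

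The sequences below are shown because the results turn on them: 170 of the 331 sites lay at a transcription start listed for the gene that held them. The RefSeq promoter table for GRCm38.p6 lists transcription starts with their strand and held 270 of the 317 host genes (85.2%) and 17492 of all 21887 protein-coding genes (79.9%). Each sequence is the 250 bases before a listed start, 5′ to 3′ on the strand of the gene, with every CG in capitals. The first belongs to Tsga10, known for its product in sperm, which held the site with the highest fold enrichment. The listed start is in the peak, and the sequence is chr1:37865083-37865332 on the minus strand, with 39 CpG.

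Tsga10, start at the peak: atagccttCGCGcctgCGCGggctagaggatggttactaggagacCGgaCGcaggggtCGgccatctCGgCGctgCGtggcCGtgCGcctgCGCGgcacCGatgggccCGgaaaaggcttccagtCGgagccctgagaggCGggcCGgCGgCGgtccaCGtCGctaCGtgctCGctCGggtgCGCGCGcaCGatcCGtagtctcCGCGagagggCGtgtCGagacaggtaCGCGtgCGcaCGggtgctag

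In 4 further genes the start at the TDG peak is shown with another listed start of the same gene, more than 2 kb away, that had no TDG summit within 1 kb. These genes were chosen after their values were seen. Map4 encodes a microtubule-associated protein, and its sequences are chr9:109931524-109931773 at the peak and chr9:110051771-110052020 at the other start, both on the plus strand. Cdkn1a encodes the cell cycle inhibitor p21, and its sequences are chr17:29093519-29093768 and chr17:29090729-29090978 on the plus strand. Gpx4 encodes the enzyme that reduces lipid hydroperoxides in membranes, and its sequences are chr10:80053409-80053658 and chr10:80046916-80047165 on the plus strand. Cacnb3 encodes a subunit of voltage-gated calcium channels and is shown as an example of the reverse order, with chr15:98632078-98632327 at the peak and chr15:98634517-98634766 at the other start, on the plus strand.

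Map4, start at the peak: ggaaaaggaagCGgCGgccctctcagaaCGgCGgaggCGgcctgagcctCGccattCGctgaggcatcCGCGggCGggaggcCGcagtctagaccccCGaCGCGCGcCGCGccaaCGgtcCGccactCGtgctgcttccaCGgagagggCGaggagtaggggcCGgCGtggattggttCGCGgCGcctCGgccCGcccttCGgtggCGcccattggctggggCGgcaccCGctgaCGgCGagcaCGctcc
Map4, other start: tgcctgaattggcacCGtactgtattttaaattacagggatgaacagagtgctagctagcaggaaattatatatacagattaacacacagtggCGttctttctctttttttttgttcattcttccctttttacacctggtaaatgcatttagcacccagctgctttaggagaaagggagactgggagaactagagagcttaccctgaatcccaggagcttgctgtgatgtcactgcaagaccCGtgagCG
Cdkn1a, start at the peak: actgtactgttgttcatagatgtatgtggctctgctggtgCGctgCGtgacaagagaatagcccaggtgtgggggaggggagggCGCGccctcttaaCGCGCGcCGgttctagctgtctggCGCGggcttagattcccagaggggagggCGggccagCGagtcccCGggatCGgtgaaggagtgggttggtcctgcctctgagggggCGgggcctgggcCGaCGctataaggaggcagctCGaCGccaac
Cdkn1a, other start: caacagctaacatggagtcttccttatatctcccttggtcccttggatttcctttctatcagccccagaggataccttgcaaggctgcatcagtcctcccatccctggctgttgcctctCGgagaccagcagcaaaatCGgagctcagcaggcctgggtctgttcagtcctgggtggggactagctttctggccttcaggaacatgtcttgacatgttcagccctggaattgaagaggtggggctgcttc
Gpx4, start at the peak: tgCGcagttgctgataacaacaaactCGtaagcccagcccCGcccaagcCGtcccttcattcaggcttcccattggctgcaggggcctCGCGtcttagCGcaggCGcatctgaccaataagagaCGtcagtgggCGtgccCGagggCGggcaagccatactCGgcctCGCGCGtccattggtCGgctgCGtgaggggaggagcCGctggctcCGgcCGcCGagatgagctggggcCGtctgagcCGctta
Gpx4, other start: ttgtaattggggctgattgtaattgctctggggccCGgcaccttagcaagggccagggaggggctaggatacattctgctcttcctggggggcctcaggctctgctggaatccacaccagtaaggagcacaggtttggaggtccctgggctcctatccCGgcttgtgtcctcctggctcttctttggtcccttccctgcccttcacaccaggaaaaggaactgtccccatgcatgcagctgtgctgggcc
Cacnb3, start at the peak: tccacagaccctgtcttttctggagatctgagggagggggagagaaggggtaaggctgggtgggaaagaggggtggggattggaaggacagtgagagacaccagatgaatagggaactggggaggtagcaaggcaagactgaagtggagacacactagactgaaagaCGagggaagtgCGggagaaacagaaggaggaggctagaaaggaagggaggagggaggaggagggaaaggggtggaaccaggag
Cacnb3, other start: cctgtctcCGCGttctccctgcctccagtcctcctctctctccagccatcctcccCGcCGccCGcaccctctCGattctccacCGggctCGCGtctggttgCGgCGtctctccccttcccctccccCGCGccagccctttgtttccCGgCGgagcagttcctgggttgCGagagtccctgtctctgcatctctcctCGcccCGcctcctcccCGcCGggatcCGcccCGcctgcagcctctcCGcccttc

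The capitals are dense in the upper sequence of each of the first 3 pairs and sparse in the lower one. The Map4 sequence at the peak held 36 CpG and the other 4. In Cdkn1a the counts were 19 and 2, and in Gpx4 24 and 2. In Cacnb3 the sequence at the TDG peak held 2 CpG and the other start 23.

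Of the 331 sites, 188 had the summit within 1 kb of a listed transcription start of any gene (56.8%, exact binomial 95% interval 51.3 to 62.2). Over all 3410 TDG peaks the share was 66.7%. By position it was 83.3% of the gene-end peaks, 33.2% of the peaks deeper in gene bodies and 13.6% of the peaks between genes. The near-end sites thus lay between the gene-end and the deep peaks in this respect. Only 3.65% of the 134 Mb of sequence that meets the position rule is within 1 kb of a listed start. Sites there numbered 38.5 per Mb, beside 1.11 per Mb in the remaining sequence of the class. The starts inside gene bodies do not come from a complete list, so the 143 sites away from a listed start may include starts that the table does not hold.

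**Figure D1:**
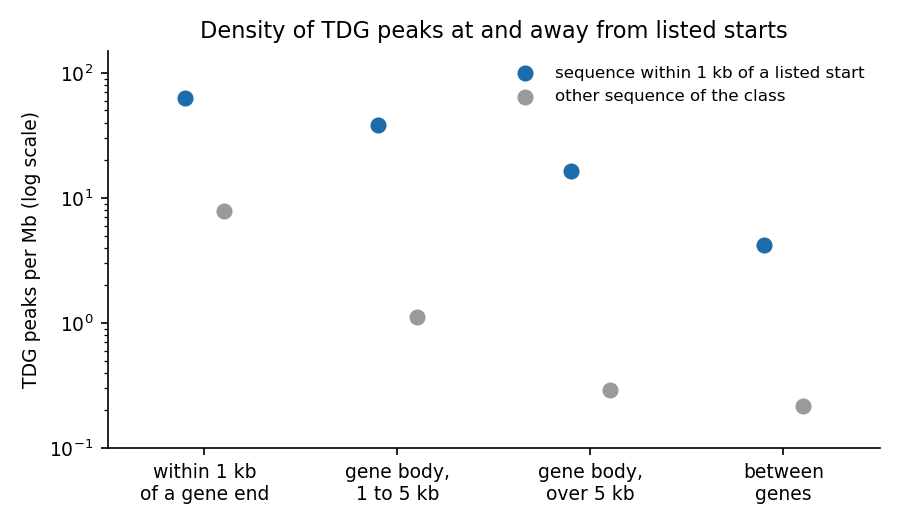
TDG peaks per Mb (log scale) in 4 position classes, each divided into sequence within 1 kb of a listed transcription start (blue) and the other sequence of the class (grey). In the class 1 to 5 kb inside a gene body the densities were 38.5 and 1.11 peaks per Mb, and the point near starts is the higher in every class.

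At 170 of the 331 sites (51.4%, 45.8 to 56.9) the start belonged to the host gene. The other 18 were at the start of a long noncoding RNA gene, a gene whose transcript codes for no protein. Among these, the Ppm1b site (8.10-fold) had its summit 58 bases upstream of the start of 1110020A21Rik, and the Gzf1 site (7.41-fold) 49 bases upstream of that of Gm46771. Ppm1b encodes a protein phosphatase and Gzf1 a zinc finger protein.

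The 170 sites were of 2 kinds. At 151 of them the listed start was itself more than 1 kb inside the gene, at a median of 2115 bases from the outer start (quartiles 1574 and 3302, highest 18695). The summits of these 151 had a median position of 57 bases upstream of the listed start (quartiles 174 upstream and 105 downstream), and 111 of 151 (73.5%, 65.7 to 80.4) were within 250 bases of it. Gene-end peaks at a listed start of a protein-coding gene had a median summit 54 bases upstream (n = 1774), and peaks deeper in gene bodies at a start of their host 14 bases upstream (n = 110). At the remaining 19 sites the listed start was up to 1 kb inside the gene and all 19 summits were downstream of it, by a median of 362 bases (16 to 981). Since a summit less than 1 kb from the outer end is barred by the rule, the downstream position of these 19 follows from how they were chosen.

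**Figure D2:**
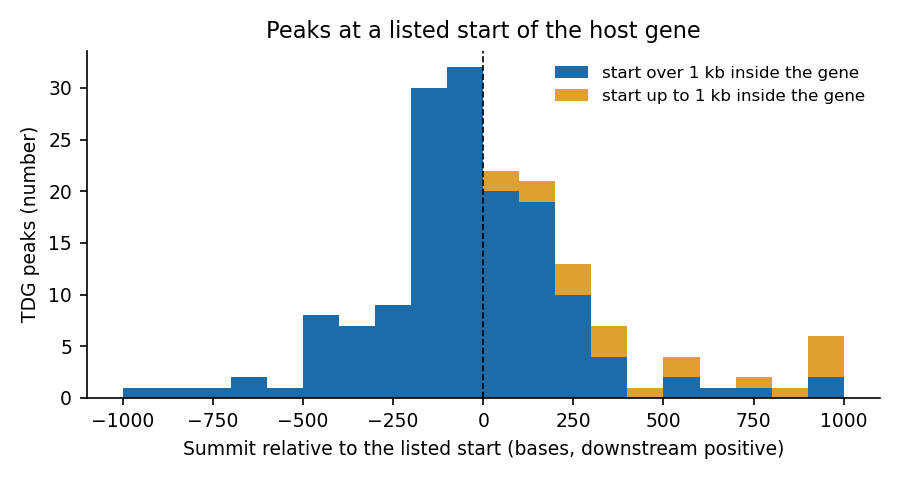
Summits of the 170 sites at a listed start of their host gene, in bases along transcription from the start (horizontal axis, dashed line at 0) against the number of sites (vertical axis). Sites whose start is more than 1 kb inside the gene (blue, 151) are centred 57 bases upstream, while the 19 whose start is up to 1 kb inside (orange) are all downstream.

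The examples cover genes of many kinds. Bcl2l11, which encodes the cell death protein BIM, held a 7.81-fold site 18 bases upstream of a start 1537 bases inside the gene. Srebf1, a master regulator of lipid synthesis, held a 7.29-fold site 69 bases upstream of a start 3559 bases inside. Bcl2l1, which encodes the survival protein BCL-XL, held a 7.03-fold site 77 bases downstream of a start 2075 bases inside. Rassf1, a tumour suppressor known for its alternative promoters, held a 6.72-fold site 44 bases downstream of a start 3149 bases inside. In Gpx4 the summit (5.99-fold) was 140 bases downstream of a start 6493 bases inside the gene. These 5 were picked after their values were seen.

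How the gene is drawn in the annotation bears on this count. Of the 166 genes with a site at a start of their own, 158 (95.2%) carried at least 1 predicted RefSeq transcript model, beside 56.3% of all protein-coding genes. In 99 of the 166 the promoter table listed 1 start only, the one at the site. In 52 of 166 (31.3%, 24.4 to 39.0) some listed start lay within 1 kb of the outer end. The part that predicted models play in setting the outer ends was not tested. With the ends of all annotated genes in the rule, noncoding ones included, it selected 309 peaks, of which 49.2% were at a listed start. The 309 were not a subset of the 331. That rule bars summits within 1 kb of the end of a noncoding gene or pseudogene, so the 52 sites so placed drop out by construction. Among them are the 18 sites at starts of noncoding genes and others at a start of the host.

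Which end was nearer was judged from the host's own ends, even where an end of another gene was closer. Strand was listed for the host of 281 sites. The end of the gene where transcription begins was the nearer one for 233 of them (82.9%, 78.0 to 87.1), and the end where it stops for 48. The sequence on the start side and the stop side is nearly equal, 52.8 Mb each, so the densities were 4.41 and 0.910 sites per Mb. Among the peaks deeper in gene bodies the start was the nearer end for 63.9% (58.3 to 69.2, n = 313). Within 1 kb of a listed start lay 176 of the 233 start-side sites (75.5%) and 6 of the 48 stop-side sites (12.5%). In the sequence away from listed starts the densities of the start side and the stop side were 1.17 and 0.807 sites per Mb.

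**Figure D3:**
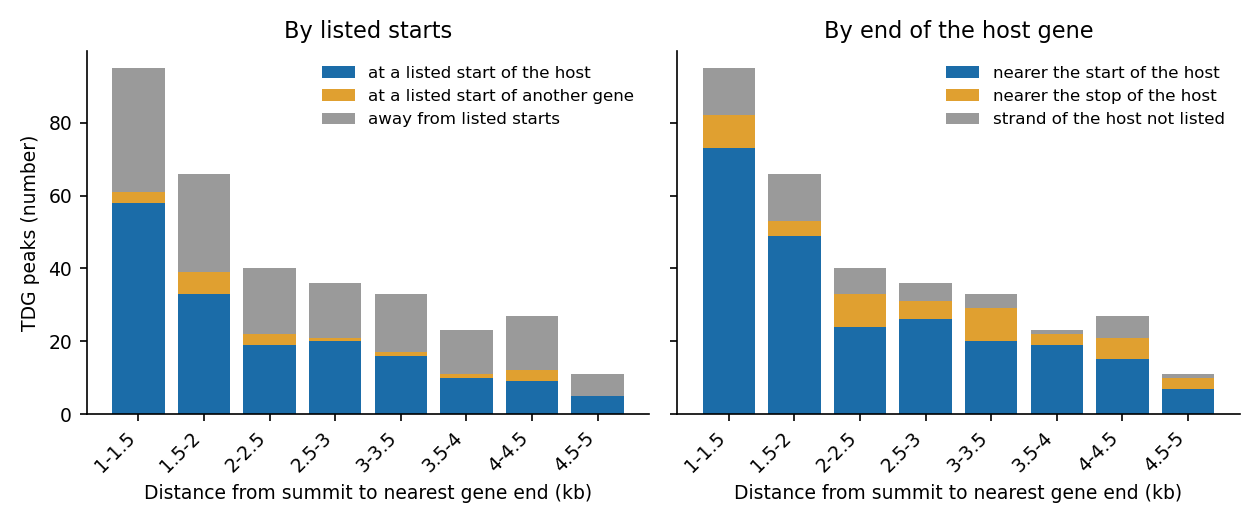
Number of TDG peaks in the class by distance of the summit from the nearest gene end (kb, bins of 0.5 kb), coloured on the left by listed starts and on the right by the nearer end of the host gene. The bin nearest the end held 95 sites and the farthest 11.

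Sites became fewer with distance, with 95 between 1 and 1.5 kb, 66 in the next 0.5 kb and 11 in the last. The fall was not steady, with 23 from 3500 to 4000 bases and 27 from 4000 to 4500. These are plain counts, and the sequence available at each distance was not measured. The median fold enrichment was 5.73 for the 237 sites up to 3 kb and 5.65 for the 94 beyond. Just inside the inner limit were the sites in Plxnb2 (1003 bases, 8.33-fold), Rad52 (5.68), Rrbp1 (4.95), Stat5a (8.07) and Efcab11 (5.14), and just outside it those in Sardh (995 bases, 7.29), Vat1 (6.77), Trim45 (6.73), Zbtb1 (7.03) and Trpv2 (4.41). Among the last sites inside the outer limit were those in Plcd1 (4930 bases, 7.81), 3110082I17Rik (4.87), Per1 (5.40) and Timp2 (5.79). For Timp2 the nearest end was that of Cep295nl, and the summit was 26469 bases from the nearer end of Timp2 itself. At 23 of the 331 sites (6.95%) the nearest end belonged to a gene other than the host. The first outside were in Vsir (5047 bases, 5.21), Sh2d3c (8.59), Srf (6.11), Zfp786 (3.44) and Carns1 (5.33). The values on either side of each limit overlapped.

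The promoter sequences gave a second readout that the rule did not use. Over the starts at the 170 sites in hosts of their own, 169 distinct starts had a sequence, with a median of 19 CpG in the 250 bases before the start (quartiles 14 and 25). A start is called CpG-rich here where these bases were at least 55% G and C and the observed number of CpG was at least 0.6 of that expected from the base composition. By that measure 121 of 169 (71.6%, 64.2 to 78.3) were CpG-rich. Starts at gene-end peaks had a median of 19 CpG, and 73.9% were CpG-rich (71.8 to 75.9, n = 1761). Starts at deeper peaks had a median of 16 and 57.3% (47.5 to 66.7, n = 110). All 21263 listed starts of protein-coding genes had a median of 10 and 37.0%.

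The other listed starts of the same host genes had a median of 10.5 CpG, and 35 of 102 (34.3%, 25.2 to 44.4) were CpG-rich. Such starts could lie near a TDG summit themselves. In 21 of 68 pairs of a start at a site and another listed start, the other also had a TDG summit within 1 kb. Each gene gave only 1 pair, so not all of its other listed starts were compared in this way. Within a gene, 31 pairs joined a start at a site with another listed start more than 2 kb away. The start at the site had more CpG in 26 pairs and fewer in 5, and the medians were 18 and 6. In 14 pairs only the start at the site was CpG-rich, in 2 only the other one, in 5 both and in 10 neither. The other start also had a TDG summit within 1 kb in 2 pairs, Ubxn6 and Shc1. Ubxn6, a cofactor of the segregase p97, had a fold enrichment of 8.52 at the inner start and 9.19 at the other, with 16 and 19 CpG. Shc1, an adaptor of growth factor receptors, had 5.00 and 6.12, with 4 and 12 CpG.

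**Figure D4:**
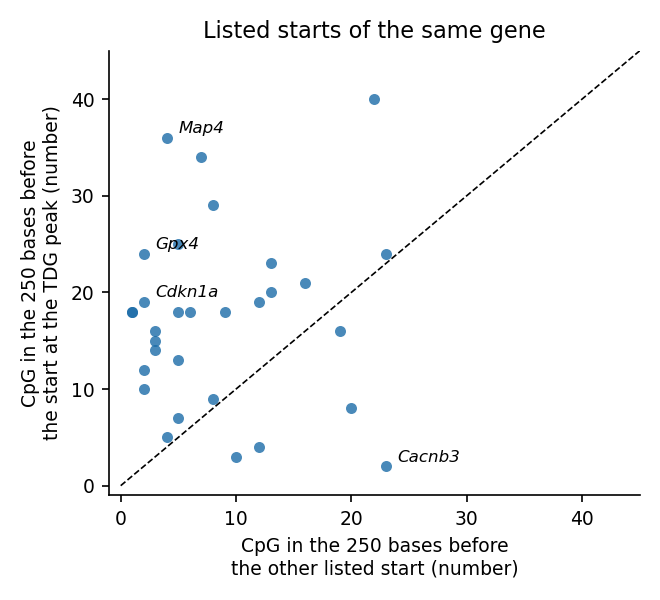
CpG in the 250 bases before the listed start at a TDG site (vertical axis) against CpG before another listed start of the same gene more than 2 kb away (horizontal axis), 1 point per pair, with the line of equality dashed. Of 31 pairs 26 lie above the line, Map4, Gpx4 and Cdkn1a among them, and 5 below, with Cacnb3 farthest to the right.

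Short motifs were searched on both strands of the same 250 bases. The GC box GGGCGG, which holds a CpG of its own, was present at 72.2% of the starts at sites, 52.0% of other listed starts of their hosts, 75.3% of starts at gene-end peaks and 42.6% of all listed starts. For the ETS site CCGGAAG, which also holds a CpG, the shares in the same order were 17.8%, 4.90%, 15.3% and 8.98%. The CCAAT box, CCAAT, was at 35.5%, 34.3%, 43.6% and 35.4%, and the TATA box TATAAA at 2.37%, 5.88%, 3.80% and 11.6%. The E-box CACGTG was at 10.1% of the starts at sites and 6.63% of all listed starts. For the cyclic AMP response element TGACGTCA, which CREB binds, these shares were 1.78% and 1.92%, and for the NRF1 core GCGCATGC 4.14% and 2.93%. The E-box, the response element and the NRF1 core each hold CpG as well. None of the searched motifs contains another. A match shows only that the letters are present. In the printed sequences the GC box was found at the Map4, Cdkn1a and Gpx4 starts at the peak and at the other start of Cacnb3.

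As measured by the authors' fold enrichment, the sites were of moderate strength. This value relates the scaled reads at the summit to the peak caller's local background, and each term includes a small constant. Dividing the reads given here by the background thus does not return the fold enrichment. The median was 5.73 (quartiles 4.95 and 6.72, range 3.18 to 12.7), beside 5.99 for gene-end peaks, 5.47 for deeper peaks and 5.57 between genes. The median of the sites had a 95% interval of 5.47 to 5.95, from the ranked values of the sites. That interval treats sites of the same library as independent and holds no variation between libraries. It is therefore no test against the medians of the other classes. Behind the fold enrichments were few reads, with a median of 23 at the summit (15 to 60). The local background was 2.56 reads at 191 of 331 sites. The ratios took only 128 distinct values, so that many sites were tied. Peak width had a median of 425 bases. No site was in a region of high local background, set at 10 reads or more.

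**Figure D5:**
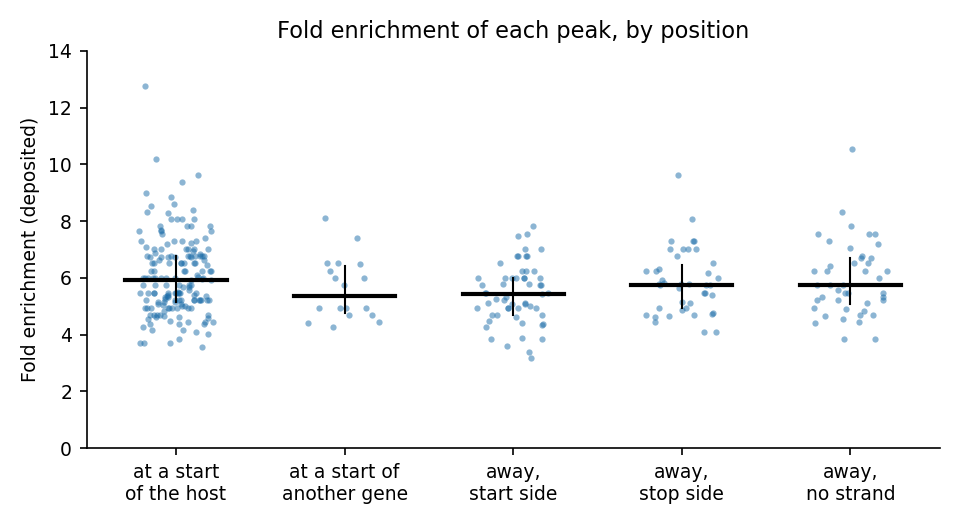
Fold enrichment of each of the 331 sites (deposited by the authors, vertical axis) by position, with the median as a horizontal bar and the quartiles as a vertical line. The medians range from 5.34 at starts of another gene to 5.92 at starts of the host, and the points of all 5 groups overlap.

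By position, the medians were 5.92 for the 170 sites at a start of the host, 5.34 for the 18 at a start of another gene, and 5.44, 5.76 and 5.73 for sites away from listed starts on the start side, on the stop side and without a listed strand. The ranges of these 5 groups overlapped. The Tsga10 site (chr1:37864478-37865492) was the strongest, with a 12.7-fold enrichment and 48 reads at the summit (exact Poisson 95% interval 35.4 to 63.6). Its summit was 70 bases upstream of a listed start and 1274 bases from the outer end. The Rbfox2 site (chr15:77306642-77307181) followed with 10.5-fold and 41 reads (29.4 to 55.6), in a gene for a splicing regulator whose strand was not listed. The Add3 site (chr19:53142405-53142994) had 10.2-fold and 43 reads (31.1 to 57.9), 98 bases upstream of a listed start. Add3 encodes an adducin of the membrane skeleton. The read intervals of these 3 sites overlapped.

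Of the next 12 sites, 9 were at a listed start of the host. These were Socs3, a feedback inhibitor of cytokine signalling (9.63-fold), Gtpbp2, a GTPase of stalled ribosome rescue (9.37), Nxpe3 (8.98), Pfkfb4, a regulator of glycolysis (8.85), Nfkb2, which encodes an NF-kappaB subunit (8.59), Ubxn6 (8.52), Inpp5k, an inositol phosphatase (8.37), Plxnb2, a semaphorin receptor (8.33), and Wdr20, a partner of deubiquitinases (8.29). The other 3 were Mamstr, a coactivator of MEF2 factors (9.63), Chd2, a chromatin remodeller (8.33), and Ppm1b (8.10). Rbfox2 and Chd2 have no start in the promoter table. Thus 11 of the 15 strongest sites were at a listed start of their host, as were 32 of the 50 strongest and 170 of all 331. At the other end of the scale, the 5 lowest sites were in Tpra1 (3.18-fold), Hk2, which encodes a hexokinase (3.40), Borcs5 (3.57), Spen, a transcriptional corepressor (3.59), and C2cd2, tied with Eprs (3.71). The Tpra1 site still had 23 reads (14.6 to 34.5), the median of the sites, over a local background of 6 reads.

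The widest sites were in Sema4c, a transmembrane semaphorin (2228 bases), Rtkn (1797), Klf15, a Krüppel-like factor (1620), and Sin3a, the scaffold of a histone deacetylase complex (1520). Pcgf1 (1252), Nadk (1234), Hlcs (1143), Ppm1b (1066), Hnrnph1 (1061) and Hnrnpl (1053) followed. Of these 10, Ppm1b alone was also among the 15 highest by fold enrichment. Sema4c had 4.63-fold and Rtkn 4.37-fold, both below the median of the sites.

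The 143 sites away from a listed start comprised 57 on the start side, 42 on the stop side and 44 in genes without a listed strand. On the start side, 26 of the 57 host genes also had a TDG peak at their outer start (45.6%, 32.4 to 59.3). Among hosts with a site at a start of their own this was 12 of 166 (7.23%, 3.79 to 12.3), and among hosts of a stop-side site 8 of 41 (19.5%, 8.82 to 34.9). Only 52 of those 166 hosts had a listed start within 1 kb of the outer end. In the rest the outer start is an annotated gene end without a listed start, so the shares are not like for like. The peak at the outer start was the stronger in 22 of the 26 genes and the weaker in 4, with median fold enrichments of 6.90 there and 4.98 at the site inside. The nearest TDG summit was a median of 1851 bases away (987 to 4656).

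Klf13, a Krüppel-like factor, had 10.4-fold at the outer start and 5.73-fold at the site 1704 bases inside. Tln1, which links integrins to actin, had 8.85 and 5.99, and Vegfa, an angiogenic growth factor, 7.41 and 5.99. Hk2 had 6.48 and 3.40. The reverse order was seen in Tmc8, with 5.99 at the outer start and 7.48 inside, in Adamts1 (5.56 and 5.99), in Plxnb2 (5.47 and 6.77) and in Mnt, a repressor of the MYC network (3.86 and 6.25). Values for Klf13, Tln1, Vegfa, Tmc8, Adamts1 and Mnt were chosen after they were seen.

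On the stop side the strongest sites away from a start were in Mamstr (9.63-fold) and Tmem44 (8.07-fold, 2027 bases from the stop end). The Mamstr summit was near the middle of its gene, 4496 bases from the stop end and 4519 from the start end. Tmem44 had a 5.33-fold peak at its stop end too. Of the 41 hosts of such sites, 3 had a TDG peak at the stop. Szrd1 held the site with the most reads at the summit, 60, over a background of 9 reads (5.64-fold). The 5 stop-side sites at a start of a host were in Tmem191c, Anapc15, Gpx4, Rnf181 and in the overlap of Hnrnpf with 4933440N22Rik. Tmem44, Szrd1 and these 5 were named after their values were seen.

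Over all 317 host genes, 61 (19.2%, 15.1 to 24.0) also had a TDG peak within 1 kb of an end, and 62 of the 319 hosts of deeper peaks (19.4%, 15.2 to 24.2). Across all protein-coding genes the share was 12.3%. The next TDG summit was within 5 kb for 23.6% of the sites (19.1 to 28.5), 9.65% of deeper peaks, 7.03% of gene-end peaks and 17.5% of peaks between genes. By the rule each site is at most 5 kb from a gene end, where 2290 of the 3410 summits lie.

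Counting the 2 summits that lay inside 2 genes under both, 318 of 21887 protein-coding genes held a site (1.45%). In 13 genes there were 2 or more. Per1, a core repressor of the circadian clock, held 3 (chr11:69096958-69100077 as a whole), with 4.63-fold, 6.51-fold and 5.40-fold from the outer start inwards. The stronger 2 were 33 and 176 bases upstream of listed starts, and a further TDG peak at its outer start had 6.51-fold. Nfkb2 held 8.59-fold and 5.27-fold sites at 2 different listed starts, 192 bases upstream of one and 105 downstream of the other. In Midn, a midnolin gene, sites of 6.72-fold and 7.66-fold were also at 2 different starts. Sin3a had 6.77-fold away from a start and 4.02-fold at one, and Plxnb2 6.77-fold and 8.33-fold likewise. Itga2b, a platelet integrin gene, had 7.81-fold near its start and 5.73-fold near its stop, neither within 1 kb of a listed start. Kdm6b, a demethylase of histone H3, had 7.55-fold and 6.70-fold. Chmp6, Cyb5r3, Eva1c, Itpkb, Plxnb1 and Slc37a1 completed the 13.

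Groups of genes were counted against the share of 1.45% over all protein-coding genes. Of 41 splicing and RNA processing genes 4 held a site (9.76%, 2.72 to 23.1), namely Rbfox2 (10.5-fold), Hnrnpf (6.73), Hnrnph1 (6.64) and Hnrnpl (5.99), and the 3 that encode heterogeneous nuclear ribonucleoproteins were at a listed start. Of 52 chromatin enzymes 3 did (5.77%, 1.21 to 15.9), Chd2 (8.33), Kdm6b and Chd4 (4.70). The promoter table lists no start for Rbfox2, Chd2 or Kdm6b, so whether their sites lay at a start of the host could not be seen. In the NF-kappaB and innate immune list 2 of 40 did, Socs3 and Nfkb2, both at listed starts.

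Among partners of CREB, CBP/p300 and nuclear receptors 2 of 37 held a site, Per1 and Rxra, a retinoid receptor (4.95-fold). Axin2 (5.21) and Fzd7 (4.70) were the 2 of 37 Wnt and Hippo genes. Klf10 (6.51) and Nfe2l2 (5.21), the regulator of antioxidant genes, were the 2 of 37 immediate early and bHLH or MYC factors. Of 44 cell cycle and replication genes Ccnd2 alone held one (4.92), and of 46 p53 targets Cdkn1a alone (7.23). No gene held a site among 35 of base excision repair and DNA demethylation, 26 melanocyte, 42 MAP kinase, 30 PI3K, 30 TGF-beta and 33 autophagy genes, nor among 16 immune, 15 fibroblast and endothelial and 13 keratinocyte markers. At a share of 1.45% a list of these sizes would hold less than 1 gene on average, so these zeros carry little information. Of the lists given here, the lower bound of the interval was above 1.45% for the splicing list only. That bound rests on 4 genes and was not corrected for the 18 lists. Gene-end peaks were frequent in the splicing list too, at 17 of its 41 genes, beside 12.3% of all protein-coding genes. Its high share was therefore not particular to the near-end sites.

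None of the 331 sites overlapped a p53 peak. A count of 0 allows a share of up to 0.906% when 3 counts are taken as the limit, and the exact binomial 95% interval reaches 1.11%. Of all TDG peaks 0.44% overlapped one. The site nearest to a p53 peak was in Cdkn1a (chr17:29093515-29093875), 509 bases from it, and the next in Pdcl, 1113 bases from it. The Cdkn1a site had 28 reads at its summit (18.6 to 40.5) and was 39 bases upstream of the start at chr17:29093769, whose upstream sequence is among those printed. The p53 peaks came from a separate library and were compared by position only.

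An end of a noncoding gene or pseudogene lay within 1 kb of 52 sites (15.7%, 12.0 to 20.1), of which 40 were long noncoding RNA genes. The shares were 15.2% at gene ends, 8.85% at deeper peaks and 22.5% between genes. The strongest were Nfkb2, beside 4833438C02Rik, Ppm1b, beside 1110020A21Rik, and Clcn4, a chloride transporter gene (8.07-fold), whose peak held the hairpin of the microRNA Mir5620. Then came Gzf1 (7.41), Hes7, an oscillating repressor needed for somite formation (7.03), and Atxn2l (7.03). Sgo1, a protector of centromere cohesion (6.94), Nup210 (6.88), Padi1 (6.78) and Cbll1 (6.77) followed.

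By chromosome, sites were most frequent on chromosome 15 where each 100 genes held 3.22 (95% interval 2.08 to 4.76, exact Poisson), followed by 11 with 3.17 (2.36 to 4.17) and 6 with 2.84 (1.94 to 4.01). Those chromosomes also carried many TDG peaks of all kinds, with 33.1, 26.4 and 38.5 per 100 genes. No site was found on chromosomes 14, 18, X or Y, where all TDG peaks numbered 21, 24, 2 and 1. On the other chromosomes the sites made up from 3.95% of the peaks on chromosome 13 to 16.2% on chromosome 19.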

How the data were processed

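Per the submitters' processing notes, the tools included MACS2, Bowtie2, Trim Galore, Picard, ChIPseeker and deepTools, with the build mm10. Which control and threshold the caller used is not given in the sources used here, nor are versions. The authors deposited peaks with positions in bases, the fold enrichment (a ratio), −log10 p and −log10 q values of the summit, and a score, which was not used further. Each list belongs to 1 sample, per the labels.

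The rule was applied to every peak with GRCm38.p6 gene ends (RefSeq), on placed chromosomes. Exons, introns and the sequence under summits were not used here. Summit reads and local background were recovered from the fold enrichment and p as MACS2 defines them, for 3408 of 3410 peaks. Reads were scaled by 0.924, and 99.9% came out whole within 0.05 reads. Library totals are not known, so depth is given as reads per summit. The recovery was tested on simulated data. Shares have exact binomial, and counts exact Poisson, 95% intervals (scipy 1.17.1). The interval of the median fold enrichment came from the ranked values of the sites, taken as independent, and holds no variation between libraries.

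Named genes were the 15 highest and 5 lowest by fold enrichment, the 10 widest, 5 on each side of each limit, those overlapping p53 peaks or in high background (none), those near noncoding ends (up to 10), genes with several sites, and up to 4 per gene list. Tsga10 and the other printed sequences, Shc1, Pdcl and the genes so marked in the text were chosen after their values were seen. A gene list and a site at the outer limit are not reported here. The position rule, the 18 gene lists and the comparisons were chosen with earlier results of these data known. Alternatives changed the distance limits, the strength threshold, the ends used and the distance to a start.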

Additional observations from a re-analysis of the deposited data

How the results depend on the processing

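Of 38 alternatives, 25 stayed within 1.5 times the count of sites or within the interval of the share or median, and 13 did not. Those intervals hold no variation between libraries and serve here as a yardstick only. Among the 25 is the p53 overlap at a −log10 q of at least 5, which could only stay at 0. That set is part of the 331 sites, none of which overlapped a p53 peak. Many alternatives share most of their sites, so the tally is a description only. An inner limit of 2 kb left 170 sites, 76.0% nearer the start, and 14.1% of hosts with a gene-end peak. A fold enrichment at or above the median of the list left 159 sites, with a median of 6.77 and 14.8% of hosts with a gene-end peak. A −log10 q of at least 5 gave a median of 5.99. Both thresholds on strength raise the median by construction. Alternatives for the share at a listed start were chosen after seeing the data. The share was 49.2% with the ends of all annotated genes. By construction that rule bars the 52 sites within 1 kb of a noncoding gene or pseudogene end. These include the 18 at starts of noncoding genes and others at a start of the host. With the main rule the share was 37.8% within 250 bases, 49.5% within 500 bases, 36.6% with the start inside the peak and 64.8% among hosts in the promoter table. With peaks up to 1 kb apart counted, 1 site met a p53 peak. No paired analysis was possible because each group had 1 library. The small number of reads per summit limits how finely single sites can be ranked.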
